A study of Rattus norvegicus with 6 samples.

Results

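Solute carriers are membrane proteins that move sugars, amino acids, metal ions, anions, nucleotides and metabolites across the cell surface and across the membranes of organelles. Each family is numbered by sequence likeness, and most members are secondary transporters or facilitators that draw on gradients rather than on ATP. In a wound they supply incoming leukocytes and growing fibroblasts with fuel, building blocks and trace metals, and several sit in lysosomes and phagosomes, where they empty digested material or starve microbes of metal. The 113 solute carrier probes described here, 1 for each of 113 rat genes, are those with a gene symbol of Slc and a digit and a mean deposited intensity over all 6 arrays above 150 units. Members were thus chosen by their deposited intensity, out of 304 such probes for 294 genes, on an array of 22517 probes. That mean used both days, so the brightness of a member is a description and nothing is drawn from it. The 2 dimmest members were Slc2a8 with a mean of 155 units and Slc36a4 with 158 units, and the 2 brightest probes left outside were Slc26a9 with 147 units and Slc12a8 with 145 units. All 113 members passed the filter on low signal. For 6 of them the mean was above the limit on 1 of the days only, namely Slc2a5 and Slc6a9, brighter at day 3, and Slc7a11, Slc36a1, Slc36a3 and Slc38a7, brighter at day 1. Among the other 191 probes, 55 passed the filter. For 3 of the member genes the array held a further, dimmer probe.

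The samples were granulation tissue, which fills a wound as it heals, from Sprague-Dawley rats aged 10 weeks. It had grown under the skin in cellulose that carried a coat of hydroxyapatite, the mineral of bone. Implants were taken out at day 3 (72 hours) from rats 6, 4 and 7 and at day 1 (24 hours) from rats 1, 2 and 3, so each rat gave 1 sample and no rat was seen on both days. All 6 implants had the coat, so the comparison is of time after implantation, and the coat's own effect was not measured. Per-rat values below follow the order of rats just given.

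RNA from whole implants mixes many cell types, and fewer cells of a type cannot be told apart from less RNA per cell. Marker genes of several cell types moved with the day. Of 8 tested neutrophil markers, 0 rose and 7 fell, and the 10 on the array summed to 5770 to 8286 units at day 3, against 27810 to 34784 units at day 1. Of 7 tested macrophage markers, 5 rose and 0 fell, with sums of 17792 to 30681 units at day 3 and 3928 to 12179 units at day 1. All 9 fibroblast and matrix markers rose, with sums of 131003 to 148698 units at day 3 and 17435 to 55989 units at day 1, so matrix genes of granulation tissue were present. All 3 tested endothelial markers rose, with sums over 4 probes of 5375 to 6369 units at day 3 and 914 to 2560 units at day 1. The defining endothelial marker Cdh5 and the neutrophil markers S100a9 and Ngp were too dim to test. Skeletal muscle markers were high on 2 arrays, with sums over 9 probes of 26503, 2007 and 1132 units in day 3 rats and 1602, 2622 and 32998 units in day 1 rats. Day 3 rat 6 and day 1 rat 3 therefore stand apart in muscle RNA, and results are given without them where that changes the call of a gene described with its values. Red cell and adipocyte markers held 0 calls among 5 and 3 tested, and of 3 tested T and B cell markers 1 fell. The part these cell types have in the results below was not tested.

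Of the 113 members, 14 rose and 36 fell at day 3 (limma, adjusted p under 0.05), and 63 did not pass. Falls made up 31.9% of the members and rises 12.4%. Over all 11591 probes tested, 31.9% were called, 16.7% higher and 15.2% lower. The fairer background is the 8030 tested probes that also had a mean above 150 units, of which 40.5% were called, 20.0% higher and 20.5% lower. The carriers were therefore called about as often as other bright probes (44.2%), with a larger share of falls and a smaller share of rises. The median log2 change, day 3 minus day 1, was -0.10 for the members, -0.04 for the bright probes and -0.05 for all probes tested. In 65 members, the 50 called ones included, the 3 rats of day 3 did not overlap the 3 rats of day 1; the same held for 56.4% of the bright probes and 49.3% of all tested. Leaving out the 6 members that were bright on 1 day only left 12 rises and 33 falls among 107. Sizes of 2-fold or more were found for 3 of the members that rose and 16 of those that fell.

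The count of calls varied with the rats included. Without day 3 rat 6, rat 4 or rat 7 the members had 5, 7 and 5 rises and 22, 22 and 20 falls, and without day 1 rat 1 they had 6 rises and 24 falls. All 50 called members kept their direction in every alternative in which they were tested. The call itself held in every such alternative for 20 of the falls (Slc2a6, Slc7a2, Slc5a3, Slc11a1, Slc39a8, Slc27a4, Slc47a1, Slc7a11, Slc31a2, Slc6a6, Slc15a3, Slc36a1, Slc66a1, Slc43a2, Slc35e3, Slc48a1, Slc38a6, Slc25a25, Slc40a1 and Slc35f6) and for 4 of the rises (Slc39a13, Slc39a7, Slc6a8 and Slc2a5). Of these, Slc2a5, Slc7a11 and Slc36a1 had a mean above the limit on 1 day only. Slc2a5 and Slc7a11 were not tested under the filter on all 6 arrays. Without the 2 arrays with high muscle signal, 28 of the 36 falls and 10 of the 14 rises were still called, and 10 other members passed, which gave 33 falls and 15 rises. With day 1 rat 3 alone left out 13 other members passed, and with day 3 rat 6 alone left out 0 did. The part of muscle RNA in these added calls was not tested.

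**Figure D1:**
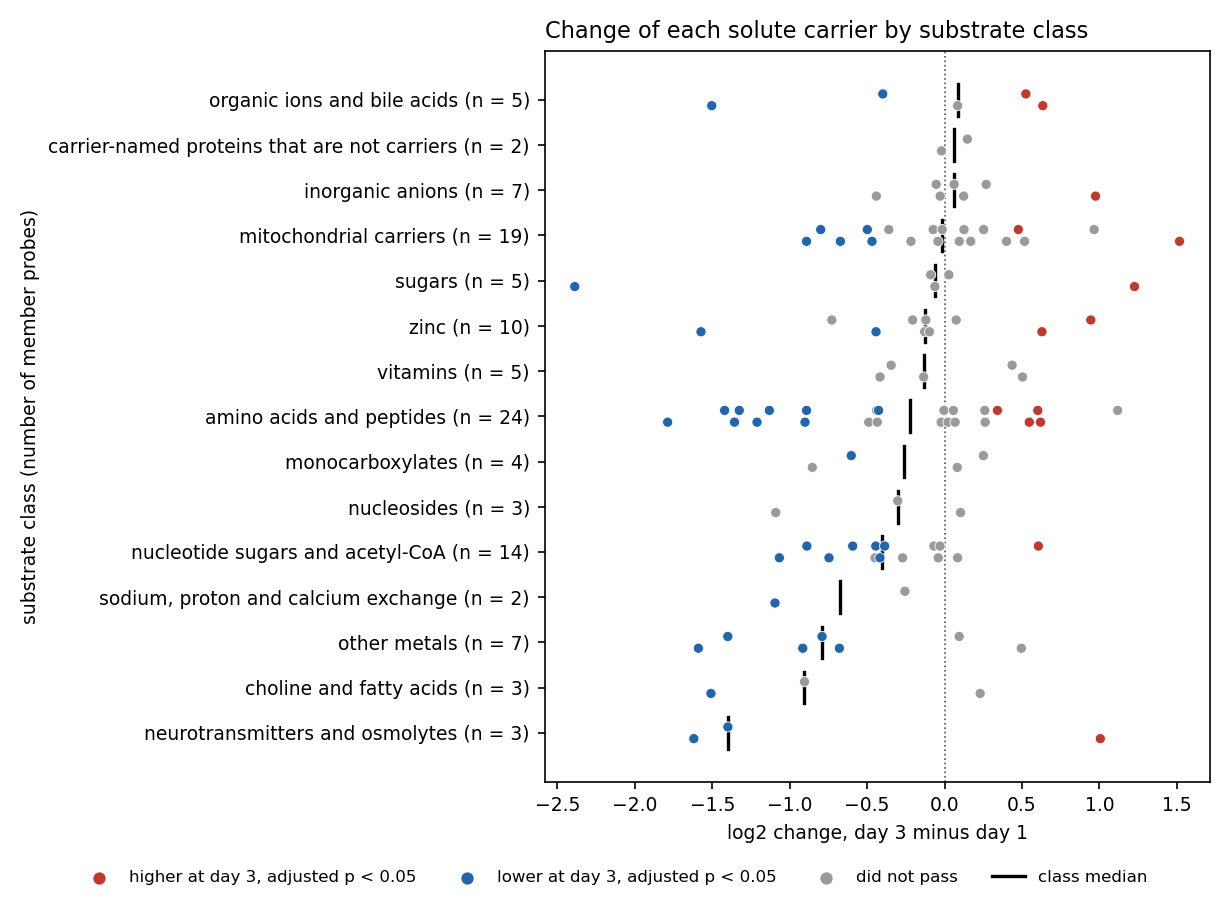
Log2 change (day 3 minus day 1, horizontal axis) of each of the 113 members, 1 point a probe, in rows by substrate class. Red points were called higher and blue points lower (limma, adjusted p under 0.05), grey points did not pass, and black ticks are class medians. Sugar and zinc carriers hold members that moved both ways, with 20% called higher and 20% called lower in each class. Over all tested probes with a mean above 150 units, the shares were 20.0% and 20.5%. The metal carriers other than zinc hold 5 falls and no rise. Class counts in the paragraphs below are to be read beside the same shares.

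Promoter sequences are shown for the sugar, amino acid and zinc classes, in each for the called member with the largest rise and the called member with the largest fall among those with a RefSeq entry. Each window runs 5′ to 3′ on the gene's strand from 250 bases before the annotated start to 50 bases after it, in RefSeq's GRCr8 assembly, with matches to searched motifs in capitals. The windows are chr5:165865929-165866228 (+) for the fructose carrier gene Slc2a5, chr3:30753238-30753537 (-) for Slc2a6, chr5:136659826-136660125 (+) for Slc6a9, chr2:136668215-136668514 (-) for Slc7a11, chr3:97502995-97503294 (-) for Slc39a13 and chr2:226929941-226930240 (+) for Slc39a8.
Slc2a5: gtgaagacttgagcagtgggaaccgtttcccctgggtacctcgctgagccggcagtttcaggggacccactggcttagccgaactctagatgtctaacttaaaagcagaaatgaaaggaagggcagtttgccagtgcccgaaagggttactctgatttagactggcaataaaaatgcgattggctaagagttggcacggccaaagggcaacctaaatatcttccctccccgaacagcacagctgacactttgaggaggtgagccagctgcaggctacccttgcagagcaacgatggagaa
Slc2a6: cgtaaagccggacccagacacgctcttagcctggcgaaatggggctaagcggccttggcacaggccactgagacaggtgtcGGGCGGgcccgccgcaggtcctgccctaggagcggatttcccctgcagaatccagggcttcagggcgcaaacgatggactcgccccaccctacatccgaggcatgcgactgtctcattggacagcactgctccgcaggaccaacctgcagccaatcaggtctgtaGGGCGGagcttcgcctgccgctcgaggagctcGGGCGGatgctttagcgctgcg
Slc6a9: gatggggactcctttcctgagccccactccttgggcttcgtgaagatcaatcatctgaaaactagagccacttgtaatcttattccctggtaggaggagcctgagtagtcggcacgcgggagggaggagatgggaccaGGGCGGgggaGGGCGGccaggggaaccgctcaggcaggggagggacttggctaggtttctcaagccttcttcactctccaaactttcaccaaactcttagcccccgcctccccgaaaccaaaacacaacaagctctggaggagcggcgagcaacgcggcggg
Slc7a11: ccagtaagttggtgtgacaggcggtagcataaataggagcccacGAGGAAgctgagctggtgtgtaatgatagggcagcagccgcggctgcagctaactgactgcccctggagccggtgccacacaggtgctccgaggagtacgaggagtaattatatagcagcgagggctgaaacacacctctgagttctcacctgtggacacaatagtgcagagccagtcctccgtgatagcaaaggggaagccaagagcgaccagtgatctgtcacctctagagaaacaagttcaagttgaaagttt
Slc39a13: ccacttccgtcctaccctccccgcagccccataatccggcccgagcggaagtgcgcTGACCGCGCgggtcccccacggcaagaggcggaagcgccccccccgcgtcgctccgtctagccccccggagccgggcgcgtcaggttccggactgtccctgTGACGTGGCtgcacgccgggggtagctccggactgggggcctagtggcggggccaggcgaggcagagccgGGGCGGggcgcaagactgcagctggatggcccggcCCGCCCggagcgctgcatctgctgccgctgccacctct
Slc39a8: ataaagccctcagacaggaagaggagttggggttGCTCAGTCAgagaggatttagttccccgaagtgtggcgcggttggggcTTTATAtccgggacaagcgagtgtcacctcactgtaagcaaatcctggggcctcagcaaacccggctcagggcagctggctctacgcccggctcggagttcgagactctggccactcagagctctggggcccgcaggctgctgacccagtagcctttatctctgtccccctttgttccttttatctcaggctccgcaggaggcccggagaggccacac

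The motifs searched on both strands were the E-box core CACGTG, the AP-1 site TGANTCA, the antioxidant element core TGACNNNGC, the PU.1 and ETS core GAGGAA, the GC box GGGCGG and the TATA box TATAAA, where N is any base. TGANTCA and TGACNNNGC can overlap. Counted from the start, the window of Slc2a6 had GGGCGG at -169, -4 and 29, and that of Slc6a9 had it at -112 and -102. Slc39a13 had TGACNNNGC at -194 and -93 and GGGCGG at -23 and 13, and Slc39a8 had TGACNNNGC at -216 and TATAAA at -168. Slc7a11 had GAGGAA at -206, and none of these letters were found in the Slc2a5 window. Windows were matched for 91 of the 113 member genes. The comparison set was the first listed window of each of 27457 RefSeq genes, not limited to genes that were bright or tested on the array. The share with GGGCGG was 68.1% of the members' windows and 34.9% of the comparison set. Median GC content was 62.3% in the members and 52.3% in the comparison set. TGACNNNGC was in 25.3% and 12.2%, CACGTG in 13.2% and 6.65%, TGANTCA in 7.69% and 7.33%, GAGGAA in 26.4% and 27.5%, and TATAAA in 5.49% and 14.3%. These are matches of letters only, and GC content differs between the sets.

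Among the 5 sugar carriers, Slc2a6 fell more than any other member and Slc2a5 rose. Slc2a6 (GLUT6) is a facilitative hexose carrier known for its high level in activated macrophages. It had 387, 587 and 459 units in day 3 rats, against 2599, 2887 and 1832 units in day 1 rats. Every day 3 rat lay below every day 1 rat, and Slc2a6 was 5.23-fold lower (log2 change -2.39 ± 0.23 SE, adjusted p = 0.00104). Slc2a5 (GLUT5), the fructose carrier, had 320, 187 and 203 units in day 3 rats and 107, 96.4 and 119 units in day 1 rats. The day 1 values lie near the array median of 104 units, day 3 rat 6 was the highest, and the change was 1.23 ± 0.23 (adjusted p = 0.00869).

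The other 3 sugar carriers did not pass. Slc37a4, which takes glucose 6-phosphate into the endoplasmic reticulum, had 1659, 1675 and 1401 units at day 3 and 1540, 1906 and 1510 units at day 1. Slc50a1 (SWEET1) and the intracellular carrier Slc2a8 (GLUT8) had log2 changes of -0.09 and 0.03, with overlapping days. The widely used glucose carrier gene Slc2a1 (GLUT1) was below the brightness limit, with 80.5, 87.7 and 93.7 units in day 3 rats and 106, 89.6 and 87.5 units in day 1 rats, and was too dim to test. Slc2a3 (GLUT3), a glucose carrier of leukocytes and neurons, also lay below the limit, and fell by 0.61 ± 0.14 on the log2 scale (adjusted p = 0.0161), a call lost with day 3 rat 4 (0.0548) or rat 7 (0.0681) left out.

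**Figure D2:**
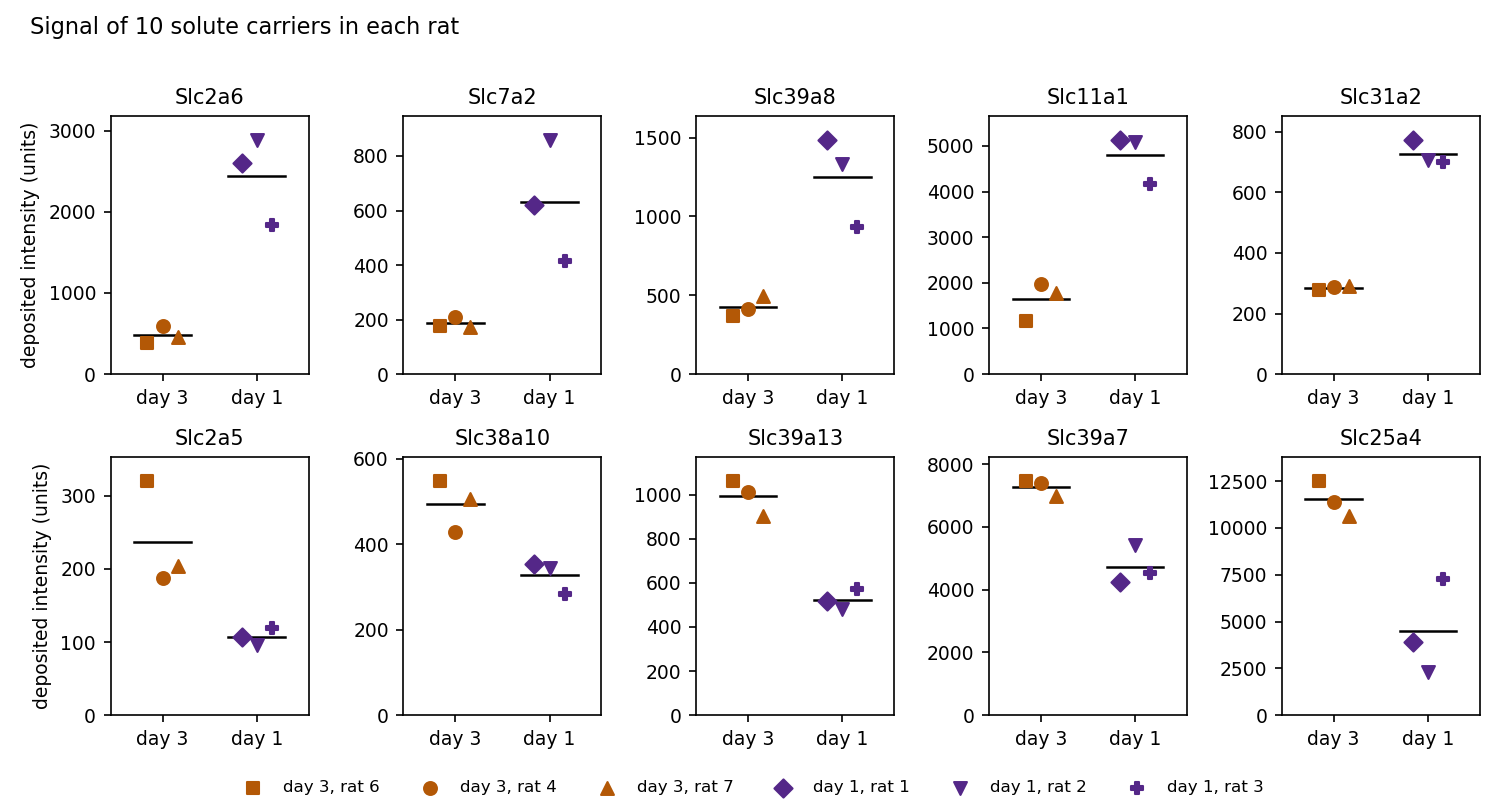
Deposited intensity (vertical axis, linear from 0, units) of 10 carriers in each rat, with day 3 left of day 1, 1 point a rat and a line at each day's mean. Slc2a6 lies at 387 to 587 units at day 3 and 1832 to 2887 units at day 1, without overlap.

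Of 24 carriers of amino acids and peptides, 4 rose and 9 fell, with a median log2 change of -0.22. The largest fall was that of Slc7a2 (CAT2), which brings arginine and other cationic amino acids into the cell. Slc7a2 had 176, 209 and 174 units at day 3, against 620, 860 and 415 units at day 1, a change of -1.79 ± 0.26 (adjusted p = 0.00392). Slc7a11 (xCT), which takes up cystine in exchange for glutamate for glutathione synthesis, had 102, 96.9 and 96.2 units at day 3, against 285, 221 and 212 units at day 1. The 3 day 3 rats were at or below the array median, so Slc7a11 has only a bound there: at least 2.28-fold lower on the deposited intensities, or 2.50-fold after background correction (fitted change -1.42 ± 0.15, adjusted p = 0.00134). Its heavy chain partner Slc3a2 (CD98) had 6432, 6355 and 5731 units at day 3 and 9166, 7522 and 8224 units at day 1. The fall of Slc3a2 by 0.43 ± 0.12 passed (adjusted p = 0.0371), but not without day 1 rat 1 (0.108) or day 3 rat 6, 4 or 7 (0.0817, 0.0954 and 0.131), nor without the 2 muscle-high arrays (0.0779).

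Other falls of the class included 3 carriers known from lysosomes, picked as examples with their values known. Slc15a3, a lysosomal carrier of histidine and small peptides, had 1932, 2489 and 2187 units at day 3, against 5741, 6254 and 4853 units at day 1 (-1.36 ± 0.15, adjusted p = 0.00161). Slc66a1 (PQLC2), which exports cationic amino acids, had 453, 584 and 519 units at day 3, against 1238, 1216 and 1075 units at day 1 (-1.21 ± 0.14, adjusted p = 0.00172). Slc36a1 (PAT1), a proton-coupled carrier of small neutral amino acids, had 115, 126 and 124 units at day 3, against 305, 367 and 200 units at day 1 (-1.33 ± 0.23, adjusted p = 0.00681). All 3 separated the days in every rat. Slc15a4, the close relative of Slc15a3, did not pass (-0.49 ± 0.17, adjusted p = 0.0669), although the days did not overlap.

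Rises were smaller in this class. Slc38a10, a member of the family of sodium-coupled neutral amino acid carriers, had 548, 430 and 507 units at day 3, against 353, 344 and 285 units at day 1 (0.62 ± 0.15, adjusted p = 0.0199). It did not pass without day 3 rat 6 or rat 7 (0.0742 in each case), nor without the 2 muscle-high arrays (0.0736). Slc6a9 (GlyT1), the glycine carrier whose window is shown, had 223, 192 and 178 units at day 3 and 123, 142 and 141 units at day 1 (0.60 ± 0.14, adjusted p = 0.017), and missed without day 1 rat 1 (0.0611), day 3 rat 6 (0.061) or rat 4 (0.0547). Slc38a4 (SNAT4) had 701, 615 and 649 units at day 3 and 407, 466 and 488 units at day 1 (0.55 ± 0.12, adjusted p = 0.0157), and missed without day 1 rat 1 (0.0533), day 3 rat 6 (0.0626) or rat 7 (0.0584).

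Slc1a5 (ASCT2), Slc38a2 (SNAT2) and Slc7a5 (LAT1), carriers of glutamine or large neutral amino acids that growing cells use, did not pass. They were picked as examples, with log2 changes of 0.06, 0.07 and 0.26. In the same class, Slc43a2 and Slc38a6 were called lower, with log2 changes of -1.13 and -0.90. Slc38a2 had 8324, 8033 and 7757 units at day 3 and 6632, 10024 and 6776 units at day 1, so the days overlap. The glutamate carrier Slc1a3 (GLAST) had 1084, 702 and 1134 units at day 3, against 342, 294 and 900 units at day 1. The high day 1 value is that of rat 3, so the days overlap and the change of 1.12 ± 0.44 did not pass (adjusted p = 0.0949). Without the 2 muscle-high arrays, the change of Slc1a3 was 1.54 with an adjusted p of 0.00901.

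The 10 zinc carriers held 2 rises and 2 falls, near the shares of 20.0% and 20.5% among the bright probes tested. These 4 calls were all in the Slc39 (ZIP) family, which brings zinc into the cytosol; of its 7 members, 2 rose and 2 fell. The 3 members of the Slc30 (ZnT) family, which takes zinc out of the cytosol, held 0 calls by limma and 0 members past an unadjusted p of 0.05, with a largest size of change of -0.13 in Slc30a7. Slc39a8 (ZIP8), a surface importer of zinc, manganese and iron, had 369, 414 and 497 units at day 3, against 1487, 1333 and 936 units at day 1. Day 1 rat 3 was nearest to day 3, and the fall was 2.97-fold (-1.57 ± 0.21, adjusted p = 0.00273). Its close relative Slc39a14 (ZIP14) had 156, 156 and 154 units at day 3 and 196, 208 and 214 units at day 1 (-0.44 ± 0.10, adjusted p = 0.0175). The call of Slc39a14 was lost without day 3 rat 6, 4 or 7 (0.0587, 0.0674 and 0.07) and without the 2 muscle-high arrays (0.0609).

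The rises were in carriers of the secretory pathway. Slc39a13 (ZIP13), which in human is mutated in a form of Ehlers-Danlos syndrome, a disorder of connective tissue, had 1062, 1010 and 905 units at day 3, against 517, 482 and 570 units at day 1. The 3 rats of each day lay close together, and the change was 0.94 ± 0.12 (adjusted p = 0.00263). Slc39a7 (ZIP7), the zinc channel of the endoplasmic reticulum, had 7471, 7396 and 6976 units at day 3, against 4260, 5417 and 4536 units at day 1 (0.63 ± 0.13, adjusted p = 0.0113). Of the zinc-binding metallothioneins, Mt3 had 800, 1692 and 1243 units at day 3 and 157, 143 and 400 units at day 1 and rose (2.62 ± 0.46, adjusted p = 0.00705). Mt1 had 19092, 14169 and 14647 units at day 3 and 8259, 9398 and 28087 units at day 1, so the days overlap and Mt1 did not pass (adjusted p = 0.655).

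Other metal carriers held 5 falls and 0 rises among 7 members, with a median log2 change of -0.79. Slc11a1 (Nramp1), the divalent metal transporter of macrophage and neutrophil phagosomes, had 1165, 1974 and 1775 units at day 3, against 5134, 5090 and 4172 units at day 1 (-1.59 ± 0.22, adjusted p = 0.003). Slc31a2 (CTR2), a copper carrier of endosomes and lysosomes, had 276, 288 and 291 units at day 3, against 774, 709 and 699 units at day 1. Its rats were close within each day and its adjusted p of 0.000528 was the lowest of all members (-1.40 ± 0.11). The copper importer Slc31a1 (CTR1) fell by 0.68 ± 0.17 on the log2 scale (adjusted p = 0.0228), but did not pass without day 1 rat 1 (0.0759) or day 3 rat 6, 4 or 7 (0.0806, 0.0573 and 0.0743).

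The same class holds the iron and heme carriers. Slc40a1 (ferroportin), the iron exporter, had 1530, 1441 and 1492 units at day 3, against 2953, 2796 and 2038 units at day 1 (-0.79 ± 0.16, adjusted p = 0.0115). Slc48a1 (HRG1), which moves heme out of lysosomes, had 415, 449 and 601 units at day 3, against 1061, 834 and 811 units at day 1 (-0.92 ± 0.19, adjusted p = 0.0113). The iron importer Slc11a2 (DMT1) had 1263, 1249 and 1442 units at day 3 and 819, 874 and 1150 units at day 1; its days did not overlap but it did not pass (0.50 ± 0.16, adjusted p = 0.0522). Without the 2 muscle-high arrays Slc11a2 passed, with a change of 0.67 and an adjusted p of 0.0202. Beside the metal carriers, the neutrophil marker sums were 5770 to 8286 units at day 3 and 27810 to 34784 units at day 1. The macrophage marker sums went the other way, with 17792 to 30681 units at day 3 and 3928 to 12179 units at day 1. The part of either cell type in these falls was not tested.

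Among 7 carriers of inorganic anions, 1 rose and 0 fell. Slc20a2 (PiT2), a sodium-coupled phosphate carrier, had 868, 680 and 574 units at day 3, against 302, 289 and 548 units at day 1. Day 1 rat 3 nearly reached the lowest day 3 rat, and the change was 0.97 ± 0.29 (adjusted p = 0.0394). It did not pass without day 1 rat 1 (0.125), day 1 rat 2 (0.105) or day 3 rat 6, 4 or 7 (0.129, 0.0943 and 0.0648). The related Slc20a1 (PiT1) had 2913, 3849 and 2963 units at day 3 and 3199, 3589 and 3069 units at day 1, with a log2 change of -0.03. The chloride-bicarbonate exchanger Slc4a2 (AE2) and the potassium-chloride cotransporter Slc12a4 (KCC1) did not pass, with changes of -0.44 and 0.12.

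Carriers of osmolytes changed by more than 2-fold in all 3 members. Slc5a3 (SMIT1), the myo-inositol carrier, had 475, 693 and 595 units at day 3, against 1526, 2323 and 1517 units at day 1 (-1.62 ± 0.22, adjusted p = 0.00304). Slc6a6 (TauT), the taurine carrier, had 720, 993 and 847 units at day 3, against 2537, 2371 and 1783 units at day 1 (-1.40 ± 0.18, adjusted p = 0.00274). Slc6a8, the creatine carrier, went the other way, with 350, 277 and 251 units at day 3 and 141, 131 and 190 units at day 1 (1.01 ± 0.20, adjusted p = 0.0111). In none of the 3 did the days overlap.

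The 19 mitochondrial carriers of the Slc25 family had 2 rises and 5 falls, with a median log2 change of -0.02. The falls include Slc25a30 (log2 change -0.80), which lost its call in 5 of 14 alternatives. A dimmer probe of Slc25a30, outside the members, changed by -0.12 and did not pass (limma, adjusted p = 0.546). Slc25a4 (ANT1), the exchanger of ADP and ATP that is the main form in heart and muscle, had the largest rise of all members. It had 12513, 11409 and 10646 units at day 3, against 3884, 2324 and 7248 units at day 1, and day 1 rat 3, an array with high muscle signal, was the nearest to day 3 (1.52 ± 0.38, adjusted p = 0.0223). Without both muscle-high arrays the change of Slc25a4 was 1.88 (adjusted p = 0.00554), but it did not pass without day 1 rat 1 (0.074) or day 3 rat 6, 4 or 7 (0.0777, 0.0623 and 0.0647). The muscle marker sums reached 26503 units at day 3 and 32998 units at day 1; their part in the values of Slc25a4 was not tested.

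The more widely expressed Slc25a5 (ANT2) had 11770, 11089 and 12361 units at day 3 and 5722, 3326 and 11440 units at day 1. Day 1 rat 3 lay within the day 3 range and Slc25a5 did not pass (0.97 ± 0.40, adjusted p = 0.112), while without the 2 muscle-high arrays it did (1.43, adjusted p = 0.0135). The mitochondrial phosphate carrier Slc25a3 likewise passed only without them (0.52, adjusted p = 0.0966, against 0.68 and 0.0331 without). The calcium-regulated carriers of ATP-magnesium and phosphate both fell: Slc25a25 by 0.89 ± 0.15 (adjusted p = 0.00545) and Slc25a24 by 0.67 ± 0.15 (adjusted p = 0.0157) on the log2 scale. Slc25a24 did not pass without day 3 rat 4 (0.051) or rat 7 (0.0657). Slc25a15, the ornithine carrier of the urea cycle, rose by 0.48 ± 0.13 (adjusted p = 0.0339), a call that did not hold with any day 3 rat left out (0.113, 0.0901 and 0.0762 for rats 6, 4 and 7) or with day 1 rat 1 (0.103) or rat 2 (0.0779) left out.

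The next class takes in carriers that load the Golgi apparatus and endoplasmic reticulum with nucleotide sugars, sulphate donors and acetyl-CoA. It also holds Slc35 members with no settled substrate. This mixed class had 1 rise and 7 falls among 14, with a median log2 change of -0.40. The largest falls were in members with no settled substrate. Slc35e3 had 213, 178 and 187 units at day 3, against 380, 417 and 362 units at day 1 (-1.07 ± 0.13, adjusted p = 0.00189). Slc35e4 had 381, 453 and 404 units at day 3, against 687, 1063 and 577 units at day 1 (-0.89 ± 0.23, adjusted p = 0.0263). The call of Slc35e4 was lost without day 1 rat 1 (0.0631) or day 3 rat 6, 4 or 7 (0.0905, 0.0561 and 0.0849). Of the other falls, Slc35f6 kept its call in every alternative. Slc35a3, Slc35c1, Slc35c2 and Slc35f5 lost theirs in 10, 9, 8 and 6 of 14 alternatives. The rise was that of Slc35b2, the carrier of the sulphate donor PAPS into the Golgi, with 706, 517 and 646 units at day 3 and 490, 383 and 371 units at day 1 (0.61 ± 0.17, adjusted p = 0.0368). It did not pass without day 1 rat 2 (0.0902) or rat 3 (0.06), day 3 rat 6 (0.121) or rat 7 (0.117), or the 2 muscle-high arrays (0.151).

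Of 4 monocarboxylate carriers, 1 fell. Slc16a3 (MCT4), which exports lactate from glycolytic cells, had 21691, 26800 and 18546 units at day 3 and 28706, 37258 and 35257 units at day 1 (-0.60 ± 0.17, adjusted p = 0.038). The groups did not overlap, but Slc16a3 did not pass without day 1 rat 2 (0.0951) or rat 3 (0.0564), day 3 rat 6 (0.109) or rat 7 (0.124), or the 2 muscle-high arrays (0.125). Slc16a1 (MCT1) had 2213, 2329 and 2317 units at day 3 and 1685, 2701 and 2217 units at day 1, with a change of 0.08. The membrane chaperones of these carriers both fell. Embigin (Emb) had 2072, 2843 and 2394 units at day 3, against 5871, 7119 and 5649 units at day 1 (-1.36 ± 0.16, adjusted p = 0.0019). Basigin (Bsg) had 1177, 1077 and 1020 units at day 3, against 1788, 1977 and 1332 units at day 1 (-0.63 ± 0.17, adjusted p = 0.0295). The call of Bsg was lost when any rat except day 1 rat 3 was left out (0.0658, 0.0882 and 0.104 for day 3 rats 6, 4 and 7, 0.0947 and 0.0676 for day 1 rats 1 and 2).

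Carriers of organic ions, fatty acids and calcium gave 4 further named changes. Slc47a1 (MATE1), a proton exchanger that extrudes organic cations, had 659, 650 and 588 units at day 3, against 1721, 2270 and 1401 units at day 1 (-1.50 ± 0.19, adjusted p = 0.00223). Slc27a4 (FATP4), a fatty acid transport protein, had 754, 981 and 717 units at day 3, against 1974, 3692 and 1614 units at day 1 (-1.51 ± 0.31, adjusted p = 0.0117). Slc22a17, a receptor for lipocalin-2, had 209, 213 and 251 units at day 3, against 149, 170 and 132 units at day 1 (0.63 ± 0.15, adjusted p = 0.0182). In each of these the 3 rats of day 3 lay on one side of the 3 rats of day 1. Slc8b1 (NCLX), the mitochondrial sodium-calcium exchanger, had 1770, 2565 and 2115 units at day 3, against 4809, 5766 and 3338 units at day 1 (-1.09 ± 0.23, adjusted p = 0.0131). Slc22a17 did not pass without day 1 rat 1 (0.0596), day 3 rat 4 (0.0503) or rat 7 (0.072), and Slc8b1 did not pass without day 1 rat 1 (0.0523), day 3 rat 6 (0.0533) or rat 7 (0.0504).

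The 5 vitamin carriers, 3 nucleoside carriers and 2 proteins with carrier-derived names (Slc7a6os and Slc4a1ap) held 0 calls by limma, with 2, 1 and 0 of them past an unadjusted p of 0.05. Slc28a2 (CNT2), a sodium-coupled carrier of purine nucleosides, had 3277, 7018 and 6066 units at day 3, against 11921, 15146 and 7410 units at day 1 and just missed (-1.09 ± 0.36, adjusted p = 0.0553). Slc28a2 passed with day 1 rat 3 left out (adjusted p = 0.0129) and without the 2 muscle-high arrays (0.00972). Slc49a4 had 723, 629 and 723 units at day 3 and 852, 1057 and 854 units at day 1 (-0.42 ± 0.14, adjusted p = 0.0549), and passed without day 1 rat 3 (0.044). Slc7a6os had 1640, 1343 and 1152 units at day 3 and 1067, 1173 and 1497 units at day 1, with a log2 change of 0.15. The days overlap in Slc7a6os and not in Slc28a2 or Slc49a4.

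**Figure D3:**
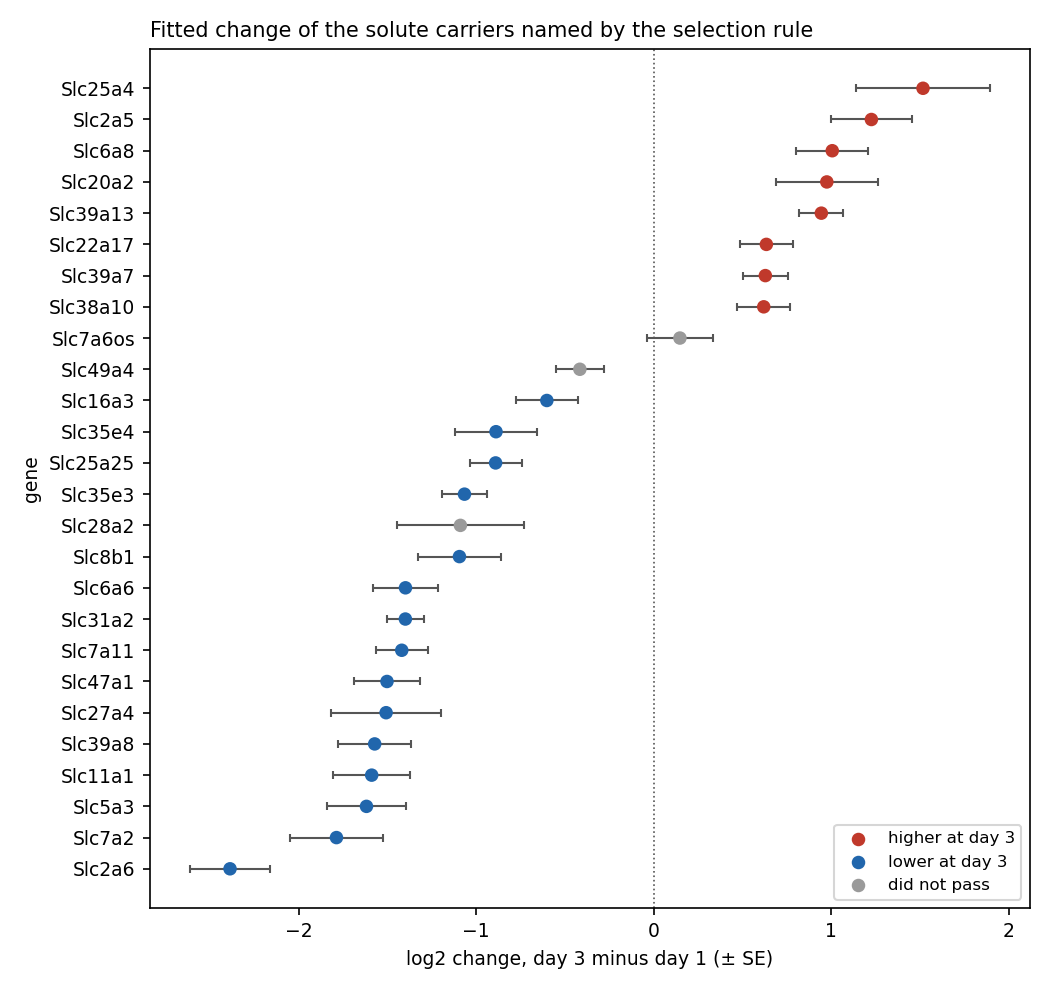
Fitted log2 change (day 3 minus day 1, horizontal axis) of the 26 carriers named by rule, with bars of ± 1 SE from limma and 3 rats a day. Red marks are called higher, blue called lower and grey not called. The changes run from -2.39 in Slc2a6 to 1.52 in Slc25a4.

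The rats of day 1 were not equally far from day 3. Among the 36 members that fell, day 1 rat 3 was the day 1 rat nearest to day 3 in 31, rat 1 in 4 and rat 2 in 1. Among the 14 that rose, rats 3, 1 and 2 were nearest in 7, 3 and 4. These counts cover the called members only, and the share over all called probes was not computed. Day 1 rat 3 had the highest day 1 sums of macrophage markers (12179 units), fibroblast and matrix markers (55989 units) and skeletal muscle markers (32998 units). Its neutrophil sum of 27939 units lay between those of rats 1 and 2. The part of these cells in the nearness of rat 3 was not tested. Of the day 3 rats, rat 4 was nearest to day 1 in 19 of the falls, rat 6 in 9 and rat 7 in 8.

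**Figure D4:**
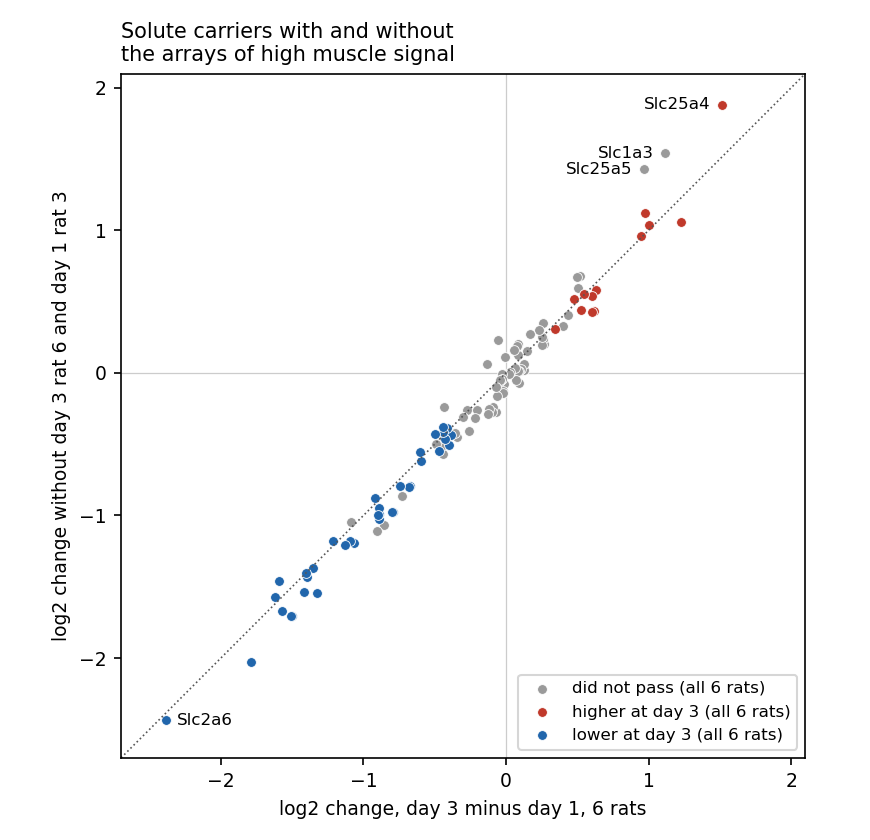
Log2 change (day 3 minus day 1) of the 113 members without the 2 arrays with high muscle signal (day 3 rat 6 and day 1 rat 3; vertical axis) against the change with all 6 arrays (horizontal axis), 1 point a member. In 107 of 113 members, and all 50 called, both values have the same sign.

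Genes whose products work with the carriers or on what they carry were tested in the same fit. Of 59 listed, 49 were on the array and 44 were tested; 6 rose and 16 fell, with a median log2 change of -0.13. Over all probes tested the shares were 16.7% and 15.2%, and over the bright ones 20.0% and 20.5%. Hexokinases, which trap imported glucose, fell: Hk2 had 277, 387 and 233 units at day 3, against 669, 924 and 633 units at day 1 (-1.37 ± 0.24, adjusted p = 0.00639). Hk3 had 2144, 3988 and 2831 units at day 3, against 8137, 8699 and 4994 units at day 1 (-1.29 ± 0.29, adjusted p = 0.0159). Hk3 did not pass with day 3 rat 6 (0.056), day 3 rat 7 (0.0583) or day 1 rat 1 (0.0623) left out. Both were lower in every day 3 rat than in any day 1 rat. In the response to amino acid shortage, 3 of 7 tested genes fell (Trib3, Ddit3 and Ddit4, with log2 changes of -1.40, -1.37 and -1.61) and 1 rose. None of these 3 falls passed with day 3 rat 6 (0.104, 0.0647 and 0.0514), day 3 rat 7 (0.113, 0.0523 and 0.0504) or day 1 rat 1 (0.0963, 0.0682 and 0.0506) left out, nor did Trib3 and Ddit3 with day 1 rat 2 left out (0.0561 and 0.0546) or Trib3 with day 3 rat 4 left out (0.0527). Phgdh, the first enzyme of serine synthesis, had 408, 371 and 384 units at day 3, against 151, 135 and 215 units at day 1 (1.33 ± 0.20, adjusted p = 0.00399). The other tested genes of this list, Atf4, Asns and Shmt2, did not pass. Their changes were -0.54 (adjusted p = 0.110), -0.06 (0.816) and 0.42 (0.0795).

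Of the 4 tested genes that make or use glutathione from cystine, 1 fell, and their median log2 change was 0.13. Gclc, which makes the first intermediate of glutathione and uses the cysteine that Slc7a11 supplies, had 1823, 2669 and 2171 units at day 3, against 3249, 3296 and 3660 units at day 1 (-0.63 ± 0.16, adjusted p = 0.0239). Gclc did not pass with day 3 rat 6 (0.0719), day 3 rat 7 (0.0804) or day 1 rat 1 (0.0622) left out, nor without the 2 muscle-high arrays (0.0801). Gclm, Gpx4 and Gss did not pass, with changes of 0.38 (adjusted p = 0.0514), 0.35 (0.0677) and -0.10 (0.674). Of 4 tested iron genes, 1 rose and 1 fell. The copper-dependent ferroxidase hephaestin (Heph), which works with ferroportin, had 437, 398 and 567 units at day 3, against 231, 140 and 250 units at day 1 (1.27 ± 0.26, adjusted p = 0.0123, and 0.0503 with day 3 rat 7 left out). The related ferroxidase ceruloplasmin (Cp) had 225, 241 and 350 units at day 3, against 596, 434 and 358 units at day 1 (-0.80 ± 0.25, adjusted p = 0.0483). Cp did not pass with day 3 rat 6 (0.153), day 3 rat 4 (0.137), day 1 rat 1 (0.133) or day 1 rat 2 (0.0914) left out, nor without the 2 muscle-high arrays (0.0522). Of 4 aquaporins, the water channels, Aqp1 rose by 1.59 ± 0.42 (adjusted p = 0.0271) and Aqp9, which also passes glycerol, fell by 1.13 ± 0.21 (adjusted p = 0.00779) on the log2 scale, while Aqp3 (-0.16, adjusted p = 0.433) and Aqp7 (0.00, adjusted p = 1.00) did not pass. Of 3 tested organic anion carriers, Slco2b1 rose by 1.51 ± 0.35 (adjusted p = 0.0169), Slco4a1 changed by -1.41 ± 0.26 (adjusted p = 0.00854) and Slco3a1 did not pass (0.25, adjusted p = 0.253). The call of Aqp1 was lost with day 3 rat 6, 4 or 7 (0.0845, 0.0646 and 0.0877) or day 1 rat 1 (0.0805) left out, and that of Slco2b1 with day 3 rat 6 (0.0546) or rat 7 (0.0581) left out. With day 1 rat 3 left out the partners had 10 rises, and with day 3 rat 7 left out 3 rises and 8 falls. There were 7, 10 and 7 falls when day 1 rat 1, day 1 rat 2 or day 3 rat 6 was the rat left out.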

How the data were processed

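Total RNA of 6 implants was amplified from 100 ng and labelled with biotin for Illumina bead arrays, per the labels' protocols. The authors deposited 1 linear intensity for each probe on each array. These values had been quantile normalized before deposit: sorted columns differ by at most 0.535 units and the median is 104 units on every array. Limma is the tool named, without a version, per the submitters' processing notes, and no source used here states a background correction. A deposited table of values before normalization has 12 per-sample columns whose headers match no label and was not used here, so the planned filter on detection p-values gave way to the array median.

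The normexp correction (offset 50) of limma 3.58.1 (R 4.3.3) was applied before log2. The filter kept 11591 probes that exceeded the array median on 3 or more of the 6 arrays. Days were compared probe by probe in a two-sided limma fit (lmFit, eBayes), p-values were adjusted by Benjamini-Hochberg across the probes kept, the threshold was 0.05, and the fit was checked on simulated data. Fold changes are on this corrected scale, so they can differ from ratios of the deposited intensities, most of all for dim probes. Where a probe did not exceed the array median in any rat of a day, the fold is a lower bound. It is the mean of the bright day over that of the dim day, given on the deposited and on the corrected scale. Each dim array was set to the higher of the array median and the probe itself. The median is a floor set for this purpose, and lower values were measured. Intensities of different probes were not compared. With 3 rats a day, the number of arrays limits the precision.

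Probe symbols came from the platform annotation, and all 113 members matched the GRCr8 gene table by Entrez identifier. The members, substrate classes, partner list and marker lists were chosen with earlier results of these data known. The rule for named members took those with adjusted p under 0.05 and no overlap of days: the 8 with the largest rise, the 8 with the largest fall and the 2 with the largest change in each class, or, in a class without calls, the member of lowest p; it gave 26. Other members and partners named are examples picked with their values known. Promoter windows were read and figures drawn in Python 3.11.15 with matplotlib 3.10.9.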

Additional observations from a re-analysis of the deposited data

How the results depend on the processing

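The alternatives were array weights, cyclic loess, an offset of 16, no background correction, no filter, a filter asking for all 6 arrays, a robust fit with an intensity trend, leaving out the 2 arrays with high muscle signal and leaving out each rat in turn. None reversed any of the 50 called members. Array weights called 6123 of all tested probes in place of 3694, and gave 25 rises of carriers in place of 14 and 12 rises of partners in place of 6; the cause was not tested. Leaving out 1 rat, and so having fewer samples, gave 2016 to 4902 calls over all probes, 5 to 17 rises and 20 to 42 falls of carriers, and 3 to 10 rises and 7 to 20 falls of partners. Slc2a5 and Slc7a11 were not tested under the filter on all 6 arrays. Slc20a2 also missed with no filter (adjusted p = 0.0661), as did Slc16a3 (0.0511), which missed under array weights too (change -0.37, adjusted p = 0.068). Slc39a14 missed under cyclic loess (0.0516), Slc3a2 with an offset of 16 (0.0614) and the intensity trend (0.0568), Slc25a15 with that trend (0.0561), Cp with no filter (0.0781), no background correction (0.0516) and cyclic loess (0.0733), Trib3 with no filter (0.0599), and Slc35b2 under array weights (change 0.32, adjusted p = 0.0847). Slc28a2 passed with an offset of 16 (0.0483), array weights (0.00747) and the intensity trend (0.0411), and Slc49a4 with array weights (0.0143). No paired analysis was possible because the rats of day 3 and day 1 carry different numbers in the labels. Signal close to the array median limits what can be said of dim probes such as Slc2a1.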

Other observations

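Solute carriers at or below the limit of 150 units held 6 rises and 3 falls among the 55 that were bright enough to test. The brighter Slc4a4 probe, for the sodium-bicarbonate cotransporter NBCe1, had 176, 180 and 196 units at day 3, against 100, 103 and 106 units at day 1 (limma, 0.94 ± 0.11 SE, adjusted p = 0.00173). The anion exchanger Slc4a3 (AE3) had 132, 135 and 132 units at day 3, against 92.2, 81.8 and 104 units at day 1 (0.61 ± 0.13, adjusted p = 0.0144), and did not pass with day 3 rat 6, 4 or 7 left out (0.0519, 0.0556 and 0.0543). Slc2a4 (GLUT4), the insulin-responsive glucose carrier of muscle and fat, had 140, 111 and 130 units at day 3, against 93.1, 93.4 and 95.9 units at day 1 (0.50 ± 0.13, adjusted p = 0.0274). All 3 day 1 rats were below the array median of 104 units, so Slc2a4 is given as at least 1.22-fold higher on the deposited intensities. The call of Slc2a4 was lost with day 3 rat 6 (0.0926), day 3 rat 7 (0.0968), day 1 rat 1 (0.0807) or day 1 rat 2 (0.0559) left out, and without the 2 muscle-high arrays (0.081). The remaining rises were in Slc12a8, Slc25a29 and Slc46a1, and the falls in Slc26a9, Slc2a3 and Slc35e1. A dim probe passes the filter more easily through the day on which it is brighter, so the counts are given as a description.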
